A study of Mus musculus with 20 samples.

Results

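The 200 brightest array spots of untreated mouse lung were followed through mice given flaxseed, thoracic radiation or both. They were 200 of 9600 spots, or 2.08%, on an array that measures RNA by hybridisation. For every spot the local background signal was subtracted from the spot signal, and the difference was divided by the median difference of its array. This value is called the level below, so a spot at its array's median has a level of 1. The 200 spots with the highest mean level over the 5 untreated mice are the members. The study held 4 groups of 5 C57BL/6 mice, an inbred laboratory strain, with 1 array per mouse. Mice of the first group ate a diet with 10% flaxseed for 21 days and received 13.5 Gy to the thorax. The radiation group received the same dose without flaxseed, the flaxseed group had the diet alone, and the untreated group had neither. Irradiated lungs were collected 48 h after the dose. All groups were bulk lung tissue of the same strain, so fewer cells of a type and less RNA per cell cannot be told apart.

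Lung tissue is known for a few very abundant messages. Alveolar type 2 cells make surfactant proteins that keep the air spaces open, club cells of the airways secrete secretoglobins, blood in the tissue brings haemoglobin messages, and all cells make ribosomal, cytoskeletal and translation proteins. On an array of immobilised DNA probes, labelled complementary DNA binds to its matching spot, and spot brightness depends on the message and also on the probe's length, amount and binding. The spots carry running identifiers that are not paired with genes in the sources used here. The name "most abundant transcripts" could therefore not be checked, no lung, blood or other cell type marker could be looked up, and the members are called the brightest spots. No member can be given a function or a sequence, and levels are compared within a spot, between mice.

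The members were bright on every array. Their median ratio of signal to local background lay between 50.9 and 62.4 on the 20 arrays, and the lowest ratio of any member on any array was 7.20. The highest signal differed on each array, between 32295 and 101721, and only 1 spot per array had it, so no common ceiling of the scanner was seen. All members passed into the tests, since no filter on dim spots was used. The median difference between signal and background over all spots was 112 ± 20.5 in mice given both treatments, 125 ± 34.1 after radiation, 172 ± 12.7 on flaxseed and 120 ± 32.0 in untreated mice (SD, n = 5 each). The flaxseed arrays were thus the brightest at their median spot, and levels, which are divided by this median, carry that difference. Its part in the results below was not tested. Precision is limited throughout by the number of arrays.

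The rule set the lowest member, gene3662, at a mean level of 34.6 in untreated mice, and the next spot, gene9360, just outside it at 34.3. The edge is therefore close. Leaving out 1 untreated mouse replaced between 5 and 10 of the 200 members, and ranking by the median over mice replaced 9. Over the members, the group mean level had a median of 53.5 in mice given both treatments, 45.9 after radiation, 48.2 on flaxseed and 53.6 in untreated mice. The lowest and highest member means were 13.5 and 691 with both treatments, 10.2 and 572 after radiation, 20.1 and 222 on flaxseed, and 34.6 and 505 in untreated mice. The untreated values chose the members, so anything set against them is a description without a test.

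The members held about the same part of the array signal in all groups. Their share of the summed signal minus background was 33.5 ± 1.34% in mice given both treatments, 32.3 ± 1.82% after radiation, 34.2 ± 1.45% on flaxseed and 34.9 ± 2.38% in untreated mice (SD, n = 5 each). Single mice ranged from 31.7% to 34.7% with both treatments and from 30.3% to 34.9% after radiation. On flaxseed the range was 32.3% to 35.4%, and in untreated mice 31.6% to 37.8%. All 4 groups overlapped in this share. The signal was also concentrated to a like degree, since 4.42%, 4.71%, 4.53% and 4.33% of the spots held 50% of it on average with both treatments, radiation, flaxseed and no treatment.

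**Figure D1:**
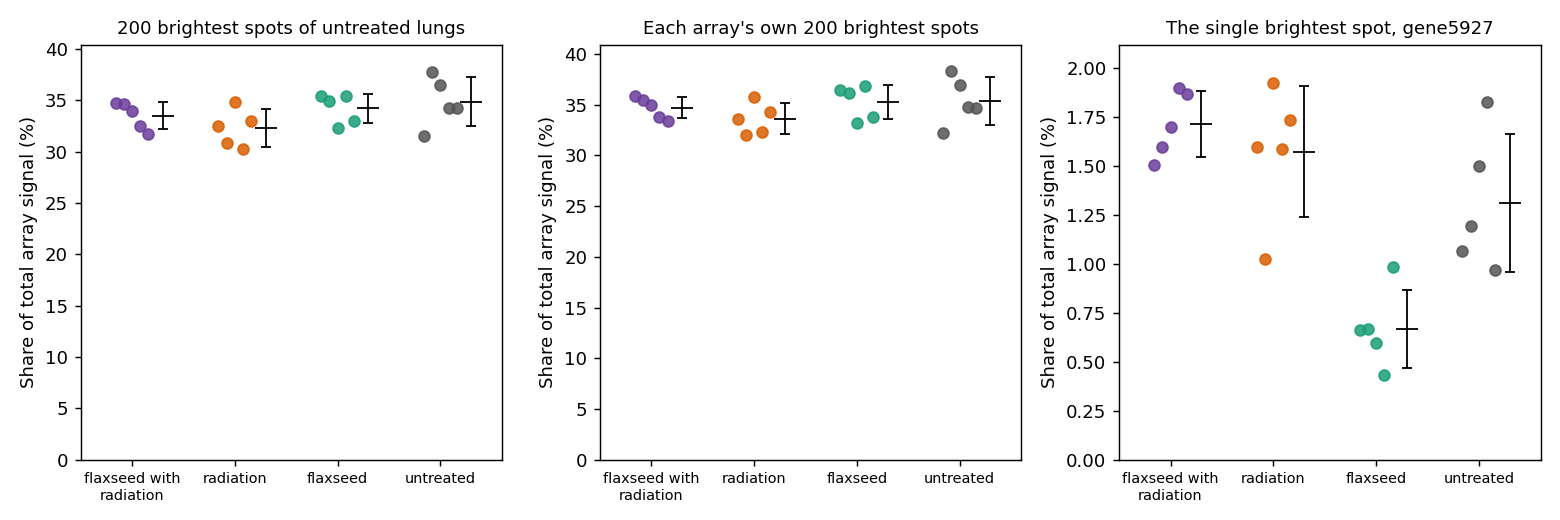
Share of the summed signal minus background, in percent, held by the 200 members, by each array's own 200 brightest spots and by the single brightest spot, gene5927, in 4 groups of 5 mice. Points are mice and bars are the mean with SD; the first 2 shares overlap between groups, and gene5927 is lowest on flaxseed, at 0.668 ± 0.200%.

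A share that does not depend on the untreated mice was taken from each array's own 200 brightest spots. It was 34.7 ± 1.05% in mice given both treatments, 33.6 ± 1.52% after radiation, 35.3 ± 1.66% on flaxseed and 35.4 ± 2.35% in untreated mice. Mice given both treatments differed from mice on flaxseed by -0.571 percentage points (exact two-sided permutation test, adjusted p = 0.516 over 2 tests). They differed from irradiated mice by 1.08 points (exact permutation test, adjusted p = 0.444). The smallest p that 5 against 5 mice allow is 0.00794. With each array's own 20 brightest spots the sign turned, with shares of 9.50 ± 0.417% with both treatments and 8.56 ± 0.448% on flaxseed, a difference of 0.941 points (exact permutation test, adjusted p = 0.0317). Single mice then lay between 8.82% and 9.94% with both treatments and between 7.90% and 9.13% on flaxseed, so the groups overlapped. Of 7 other settings for this comparison, only this 1 had an adjusted p under 0.05. The adjustment covered the 2 comparisons and not the settings. The spot at rank 1, gene5927, was among these 20 on every array. Without it, a setting chosen after seeing the data, the shares were 7.79 ± 0.375% with both treatments and 7.89 ± 0.520% on flaxseed, and the difference was -0.103 points (exact permutation test, adjusted p = 0.746).

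Most members stayed among the brightest spots of each lung. On single arrays, 164 ± 6.80 members were among the 200 brightest spots with both treatments, 161 ± 10.6 after radiation, 169 ± 3.27 on flaxseed and 177 ± 3.56 in untreated mice (SD, n = 5 each). The rule favours the untreated arrays here. Over all 20 arrays, 85 members were always among the 200 brightest. By group means, 173 members ranked in the top 200 with both treatments, 170 after radiation and 173 on flaxseed. There were 147 members in the top 200 of all 4 group means, and 4 in the top 200 of untreated mice alone. No spot that entered the top 200 of another group came from below rank 360 in untreated mice. The member that ranked lowest was gene4027 with both treatments, at rank 729, and after radiation, at rank 830. On flaxseed it was gene9224, at rank 312.

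Set beside untreated mice, the members were centred near the same level with both treatments and lower in the other groups on this scale. The median ratio of a member's mean level to its untreated mean was 0.986 with both treatments, 0.842 after radiation and 0.863 on flaxseed. With both treatments 111 members were below and 89 above their untreated mean. After radiation 158 were below and 42 above, and on flaxseed 151 were below and 49 above. The choice by high untreated levels favours ratios below 1. The mean level of the other spots was 2.87 ± 0.196 with both treatments and 2.59 ± 0.253 after radiation. It was 2.31 ± 0.143 on flaxseed and 2.66 ± 0.094 in untreated mice, so on flaxseed the other spots were lower too. No member had more than 2 times its untreated mean in any group. The lowest ratio was that of gene2263 with both treatments, at 0.365, and after radiation, at 0.198, and that of gene5927 on flaxseed, at 0.439. The sizes of these medians depended on the scale, and for flaxseed also the direction. With quantile normalisation, which gives every array the same distribution of values, the median log2 difference of the members was -0.06 for radiation against untreated and 0.00 for flaxseed against untreated. With scaling by the array median these were -0.24 and -0.20. Radiation against untreated was also below 0 with the 75th percentile (-0.18) and cyclic loess (-0.09), and flaxseed against untreated was -0.04 and 0.05 with these.

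The single brightest spot, gene5927, stood at rank 1 by group mean in each of the 4 groups, yet its level on flaxseed was low. Its levels were 684, 681, 650, 713 and 726 in mice given both treatments and 620, 326, 772, 585 and 557 after radiation. They were 237, 228, 192, 131 and 320 on flaxseed and 392, 493, 612, 671 and 355 in untreated mice. The 5 values with both treatments lay above the 5 on flaxseed, and every flaxseed mouse lay below every untreated mouse. It held 1.71 ± 0.169% of the array signal with both treatments, 1.57 ± 0.334% after radiation, 0.668 ± 0.200% on flaxseed and 1.31 ± 0.350% in untreated mice (SD, n = 5 each). It was the brightest spot on 17 of the 20 arrays, but on 2 of the 5 flaxseed arrays, where its lowest rank was 10. Its test depended on the scaling, and quantile normalisation gives the brightest spot of every array the same value. With both treatments against flaxseed, its log2 difference was 0.60 after quantile normalisation (SE 0.204, limma adjusted p = 0.0760) and 1.70 after median scaling (SE 0.237, limma adjusted p = 0.000364). It was 1.47 after scaling by the 75th percentile. A call means an adjusted p under 0.05 over all 9600 spots in limma, a linear model fitted to every spot. The spot gene5927 was called in 5 of 13 other settings of the processing. All settings without a call used quantile normalisation. In the main fit this held the spot at 15.9 (log2) with an SD of 0 in every group but flaxseed. Its difference is capped there, so the count of settings does not measure support. Median scaling, 75th percentile scaling, cyclic loess and the authors' table all called it. Median scaling and the authors' table, which hold the same member values, are both among the 5.

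The spots at ranks 2 and 3 did not show this pattern beyond their spread. The spot gene6737, at rank 2, had levels of 297, 261, 281, 183 and 213 with both treatments, 280, 225, 245, 170 and 166 after radiation, 232, 213, 185, 212 and 185 on flaxseed, and 220, 417, 325, 222 and 269 in untreated mice. Its groups overlapped, and its log2 difference between both treatments and flaxseed was -0.19 (limma adjusted p = 0.673), with the opposite sign under median scaling (0.25), 75th percentile scaling (0.03) and cyclic loess (0.09). The spot gene5369, at rank 3, had levels of 457, 183, 212, 366 and 546 with both treatments, 400, 141, 281, 345 and 316 after radiation, 312, 133, 73.0, 190 and 291 on flaxseed, and 180, 339, 205, 289 and 314 in untreated mice. These overlapped too, with a difference of 0.25 (limma adjusted p = 0.742) that was -0.08 without the third flaxseed mouse. The difference was above 0 in all 13 other settings, at 0.20 to 0.88. It was 0.88 under median scaling and 0.66 under 75th percentile scaling. The spot was called in 0 of these settings.

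**Figure D2:**
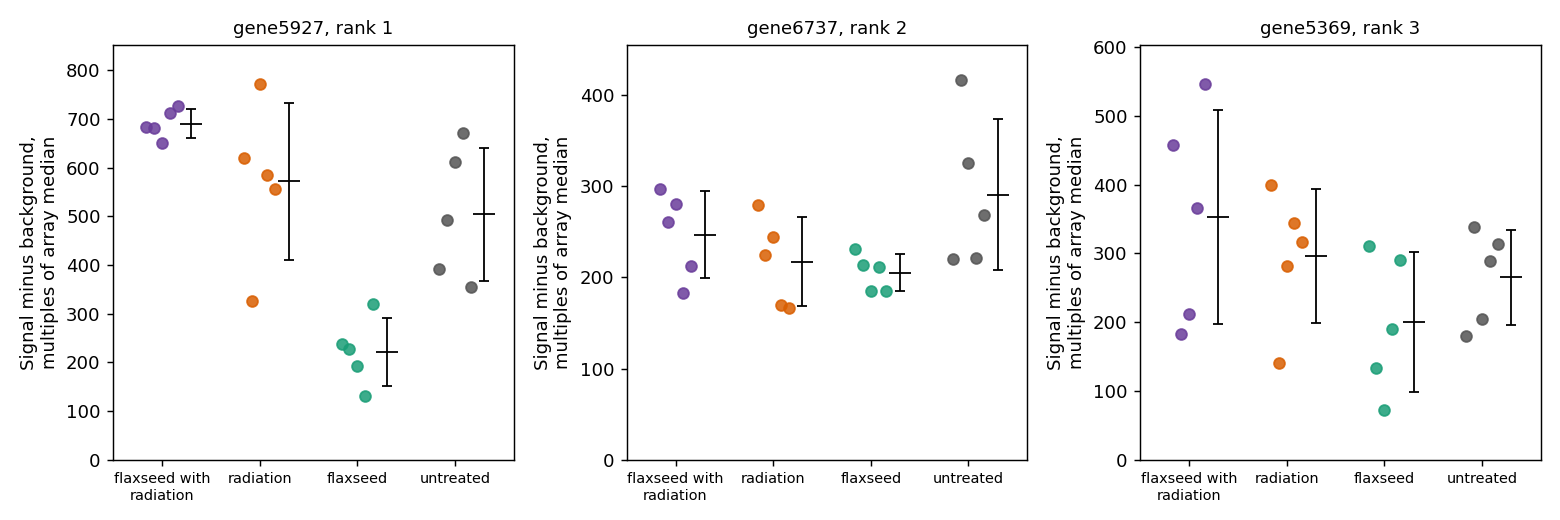
Levels of the 3 brightest members in each mouse, as signal minus background in multiples of the array's median spot. Points are mice and bars are the mean with SD (n = 5 per group); gene5927 lies between 650 and 726 with both treatments and between 131 and 320 on flaxseed, while the groups of gene6737 and gene5369 overlap.

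The effect of radiation under the flaxseed diet was read from the group given both treatments, set against the flaxseed group. The rule used neither group. With quantile normalisation 44 of the 200 members were called, or 22.0%, at a limma adjusted p under 0.05, against 8.72% of all spots. Of these, 23 rose and 21 fell, against 5.08% and 3.64% of all spots. Called members differed by a median of 0.77 (log2) in size. Over all members the median change was -0.10, against -0.01 over all spots. The count was 29 without the first mouse given both treatments, and between 34 and 47 without any other mouse. The share of all spots called was 6.26% without that first mouse, and between 6.34% and 9.56% without any other.

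The balance of rises and falls depended on the scaling. Median scaling called 49 members, of which 41 were higher and 8 lower, against 11.2% of all spots called, 9.16% higher and 2.0% lower. With the 75th percentile 29 members were higher and 18 lower, against 7.92% and 2.18% of all spots and 10.1% together. With cyclic loess 22 were higher and 31 lower, against 5.55% and 3.76% of all spots and 9.31% together. Quantile normalisation and median scaling both called 31 members, 23 higher and 8 lower, each with the same sign. The median change of all members turned from -0.10 with quantile normalisation to 0.11 with median scaling. Without any model, the levels of both groups did not overlap for 39 members, 37 higher with both treatments and 2 lower. This compares with 9.09% of all spots, of which 7.72% were higher and 1.38% lower. Levels are divided by the array median, so this count shares the scale of median scaling. It is no separate check of the balance.

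**Figure D3:**
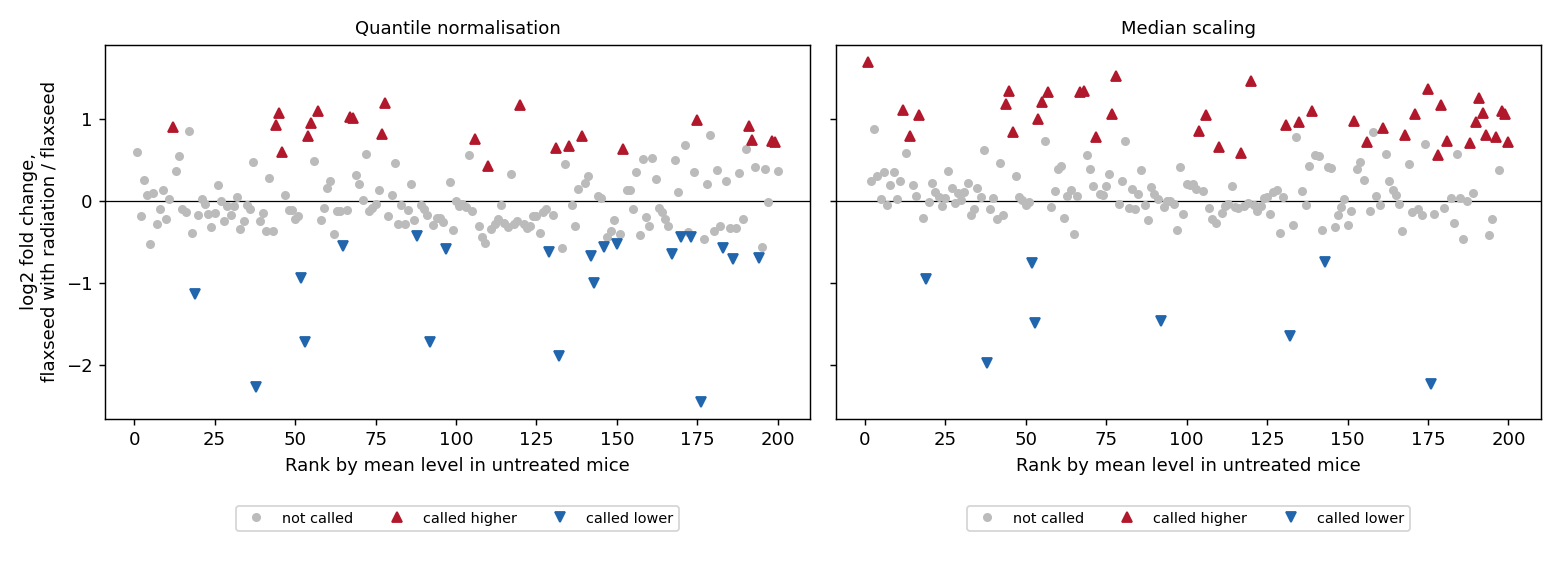
Log2 fold change of each of the 200 members, mice given both treatments over mice on flaxseed, plotted on the member's rank in untreated mice, after quantile normalisation and after median scaling. Triangles are members called at an adjusted p under 0.05; quantile normalisation called 23 higher and 21 lower, and median scaling 41 higher and 8 lower.

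The spots next in brightness were called more often than the members. The share called with quantile normalisation was 10.0% at ranks 1 to 20, 21.2% at ranks 21 to 100 and 25.0% at ranks 101 to 200. It was 34.5% over the 200 spots next in rank after the members, 25.0% at ranks 401 to 800 and 22.9% at ranks 801 to 1600, and it was 2.96% at ranks 4801 to 9600. With median scaling the median log2 change was 0.50 over the next 200 spots, 0.48 at ranks 401 to 800 and 0.43 at ranks 801 to 1600, beside 0.11 over the members. With quantile normalisation these were 0.11, 0.04 and 0.03, beside -0.10 over the members. The spread of log2 levels between mice of a group was like that of other spots, with a median SD of 0.326 for members and 0.344 for other spots. On the quantile scale used for the calls, the median SE of the change was 0.167 for members and 0.129 for other spots.

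**Figure D4:**
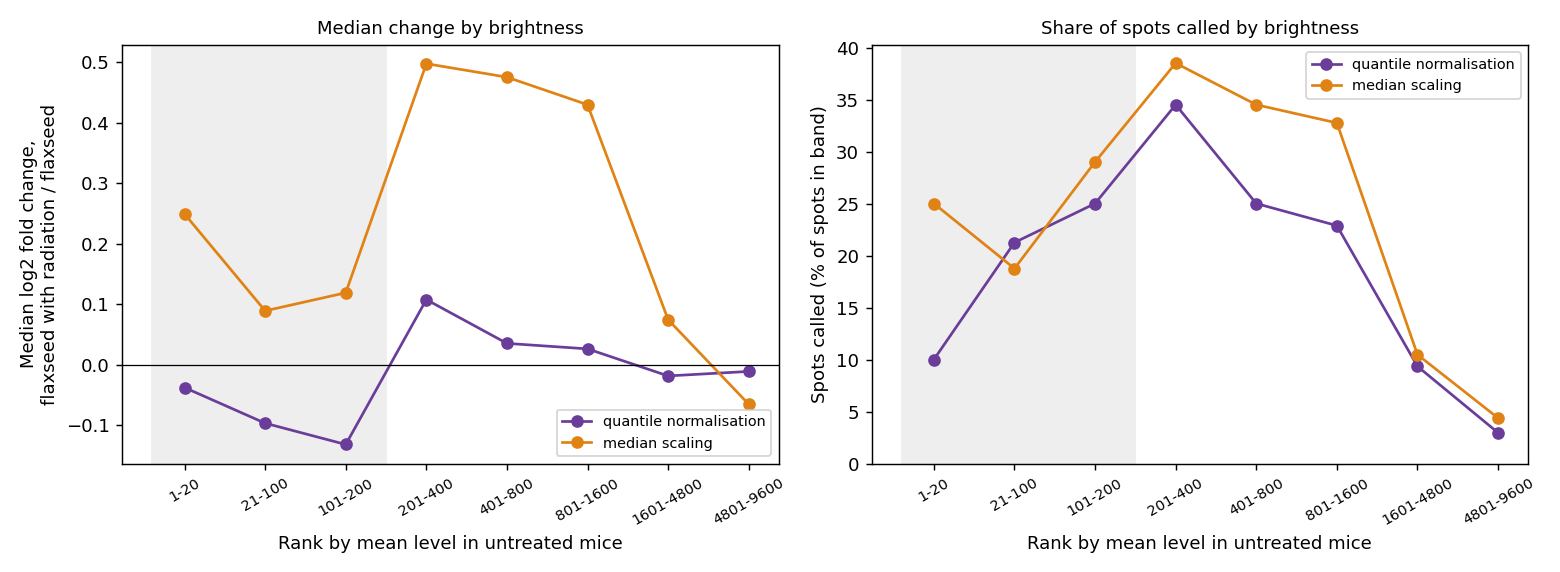
Median log2 fold change, mice given both treatments over mice on flaxseed, and share of spots called, in 8 bands of rank by mean level in untreated mice. The grey area holds the 200 members; the share called with quantile normalisation is highest in the 200 spots next in rank after the members, at 34.5%, and is 10.0% at ranks 1 to 20.

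The 2 called members with the largest rises were gene1904 and gene7765. The levels of gene1904 were 97.7, 62.8, 73.5, 90.5 and 61.3 with both treatments, against 35.1, 23.5, 29.2, 12.7 and 42.3 on flaxseed. The groups did not overlap. It rose by 1.20 on the log2 scale (SE 0.266, limma adjusted p = 0.00740). Its levels of 73.8, 26.8, 57.4, 75.4 and 36.8 after radiation overlapped those of 65.0, 87.3, 57.6, 36.9 and 57.0 in untreated mice. The levels of gene7765 were 106.5, 87.6, 45.2, 54.7 and 117.1 with both treatments, against 28.4, 36.8, 26.4, 15.3 and 40.7 on flaxseed, again with no overlap. It rose by 1.17 (SE 0.249, limma adjusted p = 0.00545). Its mean level was 52.7 ± 15.5 after radiation and 49.3 ± 10.5 in untreated mice (SD, n = 5 each).

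The 2 called members with the largest falls were gene4027 and gene2263. The levels of gene4027 were 14.1, 27.7, 7.91, 4.01 and 13.9 with both treatments, against 42.5, 47.3, 83.7, 34.5 and 67.1 on flaxseed, with no overlap. It fell by 2.45 on the log2 scale (SE 0.371, limma adjusted p = 0.000741). Its levels were 11.2, 8.82, 17.2, 10.1 and 3.47 after radiation, all below those of untreated mice at 39.7, 35.7, 51.9, 22.3 and 34.7. The levels of gene2263 were 25.7, 75.6, 11.2, 10.1 and 22.0 with both treatments, against 64.0, 83.4, 150.2, 46.9 and 121.1 on flaxseed. The second mouse given both treatments, at 75.6, lay among the flaxseed mice and the other 4 lay below them. It fell by 2.27 (SE 0.442, limma adjusted p = 0.00321), and by 2.69 without that mouse. After radiation the levels were 10.2, 16.3, 27.4, 17.2 and 7.43, all below those of untreated mice at 73.9, 57.2, 130.7, 49.3 and 85.2. Of all members, gene2263 varied most between mice of a group, with an SD of 0.885 of its log2 level over the 15 treated arrays. The calls of gene1904, gene7765, gene4027 and gene2263 held in all 13 other settings and with any 1 mouse left out. The 13 count median scaling and the authors' table separately, though both hold the same member values.

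Changes of at least 2-fold were called for 13 members, 6 higher and 7 lower, after quantile normalisation. This compares with 0.51% of all spots, of which 0.208% were higher and 0.302% lower. All spots are not matched to the members in brightness. The median size of the log2 change was 0.299 for members and 0.128 for all spots on this scale. With median scaling, which adds no offset, it was 0.224 and 0.235. The list of 13 also depended on the scaling. With median scaling gene8859, which is in the list, changed by -0.94, under 2-fold. The spots gene5927 (1.70) and gene9224 (1.37), which are not in it, were called there with changes over 2-fold. These 13 were chosen on this comparison, so their shares describe them. The 7 lowered members together held 0.499 ± 0.192% of the array signal with both treatments, 0.477 ± 0.111% after radiation, 1.55 ± 0.516% on flaxseed and 1.14 ± 0.245% in untreated mice (SD, n = 5 each). By mouse the share was 0.47, 0.81, 0.41, 0.30 and 0.52% with both treatments, against 1.15, 1.25, 2.19, 1.12 and 2.02% on flaxseed. In this share both irradiated groups were below both other groups in every mouse, but narrowly. The second mouse given both treatments had 0.81% and the fourth untreated mouse 0.82%. By the summed level of the 7 the groups overlapped. The second mouse given both treatments, at 345, lay above the fourth flaxseed mouse, at 339, and the fourth untreated mouse, at 302. The 6 raised members held 1.22 ± 0.105% with both treatments, 1.07 ± 0.132% after radiation, 0.585 ± 0.142% on flaxseed and 0.995 ± 0.102% in untreated mice. Here the flaxseed mice stood alone, with a highest share of 0.81%, below the lowest of the other 15 mice at 0.89%. The choice of the 6 favours shares on flaxseed below those with both treatments. The rule for members also favours high shares in untreated mice. Without the second mouse given both treatments, gene8859 of the 7 lowered members was no longer called, with a log2 change of -1.07 without that mouse (limma adjusted p = 0.0536) beside -1.14 with all mice. The other 12 were still called.

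**Figure D5:**
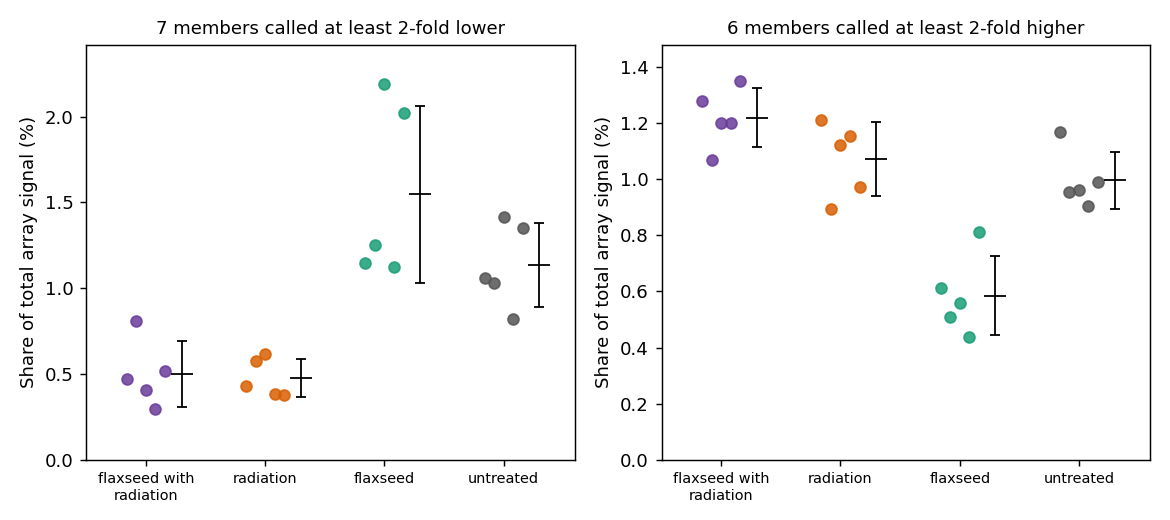
Share of the summed signal minus background, in percent, held in each mouse by the 7 members called at least 2-fold lower and the 6 called at least 2-fold higher with both treatments than on flaxseed, after quantile normalisation. Points are mice and bars are the mean with SD. In this share both irradiated groups lie narrowly below the other groups for the 7, and the flaxseed mice lie below all others for the 6.

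The 5 members with the largest falls varied together between mice of the same group. Over the 20 arrays, the deviations of their log2 levels from the group means correlated at 0.812 to 0.910 in the 10 pairs. Without the second mouse given both treatments the range was 0.718 to 0.884. All pairs share arrays, scaling and the choice by their fall, and the closest pair lay 12 spots apart on a grid inferred from the order of the files. Over all 19900 pairs of members the median correlation was 0.295, and 80.4% of the pairs were above 0. Only 10 pairs were over 0.9.

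The effect of the flaxseed diet under radiation was read from the group given both treatments, set against the radiation group. The group given both treatments is the same as in the comparison above, so the results are not independent. Of the members, 0 were called by limma after quantile normalisation, against 0.0104% of all spots. At an unadjusted p under 0.05 there were 7 members, 5 higher and 2 lower, against 7.47% of all spots, of which 3.23% were higher and 4.24% lower. Median scaling also called 0 members, with 19 at an unadjusted p under 0.05 against 10.2% of all spots, and the 75th percentile and cyclic loess called 0. The levels of both groups did not overlap for 0 of the 200 members, against 1.57% of all spots. Both shares are small, and nothing particular to the members is read from them. The median log2 difference of the members was -0.00 after quantile normalisation, 0.21 after median scaling and 0.09 after 75th percentile scaling.

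The member with the smallest p among those lower with both treatments than after radiation was gene8217. Its levels were 56.8, 59.1, 43.2, 37.9 and 56.5 with both treatments, against 67.9, 57.2, 80.2, 52.2 and 80.6 after radiation. The groups overlapped, with a difference of -0.64 (SE 0.134, limma adjusted p = 0.261). Against flaxseed, where its levels were 92.8, 97.8, 78.8, 84.0 and 71.2, it fell by 0.94 with both treatments (limma adjusted p = 0.000435). Among members that were higher, gene4058 had the smallest p, with levels of 45.7, 44.6, 39.5, 36.8 and 34.0 with both treatments, against 34.1, 14.4, 40.4, 20.2 and 22.6 after radiation. These overlapped, with a difference of 0.51 (SE 0.161, limma adjusted p = 0.509).

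The steadiest member by level was gene8121, with an SD of 0.157 of its log2 level within the groups of the 15 treated arrays, those that the rule did not use. This steadiness depended on the scale. After quantile normalisation its SD was 0.222 with both treatments, 0.350 after radiation, 0.130 on flaxseed and 0.357 in untreated mice. Its levels were 49.7, 46.1, 52.3, 48.6 and 48.7 with both treatments and 47.0, 49.2, 38.2, 45.5 and 33.7 after radiation. They were 34.9, 32.9, 35.9, 32.1 and 28.6 on flaxseed and 54.3, 57.2, 39.7, 60.2 and 35.9 in untreated mice. The flaxseed group was the lowest by mean. Its mice overlapped those given radiation alone and lay below all mice with both treatments. With both treatments against flaxseed the log2 difference was 0.33 after quantile normalisation (limma adjusted p = 0.276) and 0.58 after median scaling (limma adjusted p = 0.0108), so the call depended on the scaling. The flaxseed group was also the lowest in gene9224, the member that ranked lowest on flaxseed. Its levels were 54.4, 50.4, 38.5, 42.4 and 81.3 with both treatments, against 20.7, 18.5, 16.4, 21.2 and 23.9 on flaxseed. There was no overlap, and it rose by 0.98 (SE 0.192, limma adjusted p = 0.00325). Its levels after radiation were 40.8, 40.2, 41.1, 39.1 and 23.7, and those of untreated mice were 36.1, 39.6, 30.8, 36.7 and 41.8. The typical member varied by a coefficient of variation of 22.4% with both treatments, 21.2% after radiation, 20.4% on flaxseed and 22.1% in untreated mice.

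The members shared a high local background, which the rule used only by subtraction. Their median background was 116 ± 22.1 with both treatments, 109 ± 30.1 after radiation, 153 ± 9.80 on flaxseed and 116 ± 29.3 in untreated mice (SD, n = 5 each). Over the other spots it was 27.9 ± 3.63, 26.9 ± 6.92, 30.5 ± 2.68 and 26.0 ± 3.54 for the same groups. The member median was 3.57 to 5.42 times that of other spots on each array. No source used here states the array's layout. It was inferred from the order of spots in the files and their backgrounds as a grid of 80 rows and 120 columns, in which backgrounds of spots 1 place apart correlated at 0.495 and those 120 places apart at 0.475. On this grid, the 756 spots next to a member had a background 1.32 to 1.49 times that of other spots. Their levels were 0.961 to 1.07 times those of other spots after subtraction. On the inferred grid the members were spread out, with 50, 47, 52 and 51 in 4 equal areas, and 16 lay beside another member. Identifiers followed blocks of 5 by 5 spots, and by place within the block the members were uneven. Of 25 places, 3 held no member and the fullest held 25, where an even spread would give 8. The 6 fullest places, picked after counting, held 113 members.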

How the data were processed

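Lung RNA of 20 mice was measured on 20 arrays after labelling with 33P, per the labels' protocols. The deposited files of single arrays hold, per the file headers, median intensities of spot signal and of local background, before any normalisation. The authors' processed intensity table was set against these: 100% of its values other than the constant 0.002 equalled the level as defined here, within 1e-04, and 0 member values were at the constant. The sources used here do not give the image software.

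For tests, intensities were corrected by normexp (offset 50), taken to log2 and normalised by quantiles. A model in limma 3.58.1 (R 4.3.3) had 1 coefficient per group over all 9600 spots and 20 arrays, with Benjamini-Hochberg adjustment over all spots and calls at 0.05. Procedures were tested on simulated data. Alternatives were other background corrections, offsets of 10 and 200, other scalings, the authors' table, other fits, 100 or 400 members and leaving out each mouse; leaving the rank 1 spot out of each array's 20 brightest was added after seeing the data. Within-group SDs of log2 levels used a floor of 0.05.

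The members, lists and named spots were chosen with earlier results of these data known. Named spots are ranks 1 to 3, the last member and the spot after it, the 2 called members with the largest change each way or the one with the smallest p, the steadiest and most variable member, and the lowest-ranked member of each treated group. The spot gene8859 was named after its values were seen. Gene lists could not be applied without gene names. Mice are separate animals in the labels, and no label gives a batch.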

Additional observations from a re-analysis of the deposited data

Results flagged for a closer look

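Of 76 sets of 5 mice examined, 5 held a mouse far from the others of its group by Dixon's test, and chance gives about 5% of such sets. The number of members among an array's own 200 brightest spots was lowest in 1 untreated mouse, at 171. The level of gene2263 was high in 1 mouse given both treatments, at 75.6. The level of gene9224 was low in 1 irradiated mouse, at 23.7. The level of gene4058 was high in 1 flaxseed mouse, at 36.2, and in 1 untreated mouse, at 52.7.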

How the results depend on the processing

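No paired analysis was possible because the mice of the groups carry separate numbers. For mice given both treatments against flaxseed, the median log2 change of the members was -0.10. It was 0.11 with median scaling and with the authors' table, -0.19 with cyclic loess, -0.081 with array weights, -0.053 with 400 members, and -0.14 to -0.067 with a mouse left out. The 44 calls became 19 with 100 members and 113 with 400, both against 8.72% of all spots. With a mouse left out they were 29 to 47. The share of all spots called moved too, from 6.26% at the 29 calls to 9.56% without the fifth flaxseed mouse. Between both treatments and radiation the median was 0.21 with median scaling and the authors' table, 0.094 with the 75th percentile and -0.020 to 0.030 with a mouse left out, and limma called 0 members in all settings. The change of gene6737 was positive with median scaling (0.25), the authors' table (0.25), cyclic loess (0.093), the 75th percentile (0.026) and without the fourth flaxseed mouse (0.00379), with a range of -0.27 to 0.00 when a mouse was left out. That of gene5369 was -0.082 to 0.56 when a mouse was left out and 0.20 to 0.88 in the 13 other settings. The cause of these shifts was not tested.

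Each array's own share of both treatments minus flaxseed was 0.429 points with 400 spots (exact permutation test, adjusted p = 0.619) and 0.941 with 20 (exact permutation test, adjusted p = 0.0317), and -1.09 to -0.190 with a mouse left out. Adjusted exact permutation p-values over other settings ran from 0.0317 to 0.746; the largest belongs to the 20 spots less gene5927, with a difference of -0.103. Against radiation the range with a mouse left out was 0.692 to 1.63. The members' share was 31.7% with both treatments and 32.7% on flaxseed without background subtraction. With both treatments, radiation, flaxseed and no treatment, 400 members held 47.6, 46.2, 47.2 and 48.6%, 100 held 22.8, 21.9, 23.0 and 23.9%, and 20 held 9.10, 8.80, 8.00 and 9.28%. With a mouse left out the share was 33.2 to 34.0%, 31.7 to 32.8%, 33.9 to 34.7% and 34.2 to 35.8% in the same order. The difference of gene5927 was 0.34 to 1.70 over the settings, called in 5 of 13 and in 2 of 20 with a mouse left out. All settings without a call, and all fits with a mouse left out, used quantile normalisation, which caps this spot. Median scaling and the authors' table, which share all member values, count separately among the 5.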
